A study of Rattus norvegicus with 17 samples.

Results

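The pyruvate dehydrogenase complex and its regulatory enzymes were followed through 10 genes: Pdha1, Pdhb, Dlat, Dld, Pdhx, Pdk1, Pdk2, Pdk3, Pdk4 and Pdp1. They share 1 enzyme system, were chosen with earlier results of these data known, and were found by gene symbol among the 14506 genes of the array with a symbol of their own. All 10 were measured, and each was read from its brightest probe set, judged by the mean of the 17 arrays. Ventricular myocytes of neonatal Sprague-Dawley rats, in cultures 5 days old, were profiled on 17 Affymetrix arrays, 1 per sample. Of these, 6 received 10% uremic plasma taken before nocturnal hemodialysis (NHD, dialysis carried out overnight in patients with kidney failure), 6 received 10% uremic plasma taken after NHD, 3 received control plasma and 2 received phenylephrine (PE), an alpha-adrenergic agonist widely used to make cultured cardiomyocytes enlarge. No group carried a genetic change. The sources used here do not give the share of the control plasma or the medium of the phenylephrine cultures. The samples are labelled as biological replicates, without a statement on separate cultures or donors of plasma, so the p-values measure the spread between these samples only.

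Pyruvate dehydrogenase is the mitochondrial enzyme that turns pyruvate, the end product of glycolysis, into acetyl-CoA for the citric acid cycle. It sets how much glucose-derived carbon the heart oxidises, in competition with fatty acids. The E1 component (Pdha1 and Pdhb) decarboxylates pyruvate, the E2 core (Dlat) passes the acetyl group to coenzyme A by way of lipoate, and E3 (Dld), held in place by the E3 binding protein (Pdhx), reoxidises the lipoate. Pyruvate dehydrogenase kinases (Pdk1 to Pdk4) switch the complex off by phosphorylating E1 alpha, and the phosphatases Pdp1 and Pdp2 switch it back on. Transcript levels say nothing of phosphorylation, which was not measured.

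The promoters of the 3 members with the largest called differences from control plasma are shown, since Dlat and Pdk3 were higher and Pdk4 was lower with phenylephrine in the same cells. Sequences are from RefSeq (rat build GRCr8), which holds a window from 250 bases before to 50 bases after the gene start for 9 of the 10 members. Pdp1 has no entry. The 250 bases before the start are printed 5′ to 3′ on the strand of the gene, with capitals marking matches to the motifs named after them. The Dlat window lies at chr8:59900819-59901068 (minus strand), the Pdk3 window at chrX:62547372-62547621 (minus strand) and the Pdk4 window at chr4:34568330-34568579 (minus strand).
Dlat: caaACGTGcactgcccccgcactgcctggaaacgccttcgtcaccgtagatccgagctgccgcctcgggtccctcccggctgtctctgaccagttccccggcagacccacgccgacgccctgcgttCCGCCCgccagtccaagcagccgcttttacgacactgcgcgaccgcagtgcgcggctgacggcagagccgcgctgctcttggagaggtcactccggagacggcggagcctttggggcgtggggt
Pdk3: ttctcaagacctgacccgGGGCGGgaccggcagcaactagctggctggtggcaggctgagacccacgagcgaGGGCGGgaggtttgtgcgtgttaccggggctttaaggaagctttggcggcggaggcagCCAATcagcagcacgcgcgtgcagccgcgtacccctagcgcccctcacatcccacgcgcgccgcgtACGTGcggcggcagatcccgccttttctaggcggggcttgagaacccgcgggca
Pdk4: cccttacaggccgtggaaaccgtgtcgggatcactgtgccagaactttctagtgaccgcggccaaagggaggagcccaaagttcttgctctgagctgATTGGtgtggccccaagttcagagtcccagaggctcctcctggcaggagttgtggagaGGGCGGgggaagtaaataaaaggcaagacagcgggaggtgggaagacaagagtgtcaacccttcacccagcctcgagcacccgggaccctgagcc

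The motifs were searched on both strands over the full windows of 300 bases. The GC box GGGCGG occurred once in the window of Dlat, at 2 places in that of Pdk3 and at 2 places in that of Pdk4, 1 of them after the start and not printed. It was present in 33.1% of 33469 rat promoters. The CCAAT box (CCAAT, 37.5% of promoters) was found in the windows of Pdk3 and Pdk4 but not of Dlat. The core of the hypoxia response element (ACGTG, 19.3% of promoters) was found in the windows of Dlat and Pdk3 and, among the other members, of Pdhb, Pdk1 and Pdk2. The E-box CACGTG (6.42% of promoters) contains that core on both strands, and it occurred at 2 places in the window of Pdhb and once in that of Pdk2. The motif GTAAACA, which forkhead FoxO factors can bind, occurred in 3.78% of promoters and among the members in the window of Pdhb only. The half-site AAGGTCA of estrogen-related receptors (4.61% of promoters) occurred in none of the 9 windows, and the TATA box TATAAA (14.2%) in that of Dld only. These matches are letters in a window and not measured binding.

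All values are log2 units made by the authors with RMA, so that a difference of 1 is a doubling. A gene is called higher or lower where limma's Benjamini-Hochberg adjusted p over 29214 probe sets was under 0.05. Ranges without overlap, given below for members, also occurred among all genes. Against control plasma, 4.47% of genes were wholly higher and 4.84% wholly lower before NHD. These shares were 18.5% and 19.6% after NHD, and 29.9% and 33.8% with phenylephrine. For phenylephrine they were 8.11% and 11.6% against before NHD and 12.5% and 14.9% against after NHD. Array medians ran from 6.89 to 7.03. The arrays carried the markers of the labelled cells. All 12 cardiomyocyte markers were measured, and Tnnt2, Myh6 and Nppa averaged 13.52, 12.70 and 13.82, at percentiles of 98.9 or above among genes. The members lay between the percentiles 72.6 (Pdk3) and 98.9 (Pdha1). Before NHD arrays scattered most. On the first principal component of all probe sets, which held 45.7% of the variance, they ran from -66.5 to 40.8, against 15.1 to 37.2 after NHD, -72.2 to -50.3 with control plasma and 33.6 to 35.7 with phenylephrine. The before and after arrays numbered 4 were the most alike of all pairs of arrays, with member differences from -0.16 to 0.39. Whether they share a culture, or whether a label is wrong, was not tested, and results are therefore given also without these arrays where that changed a call.

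**Figure D1:**
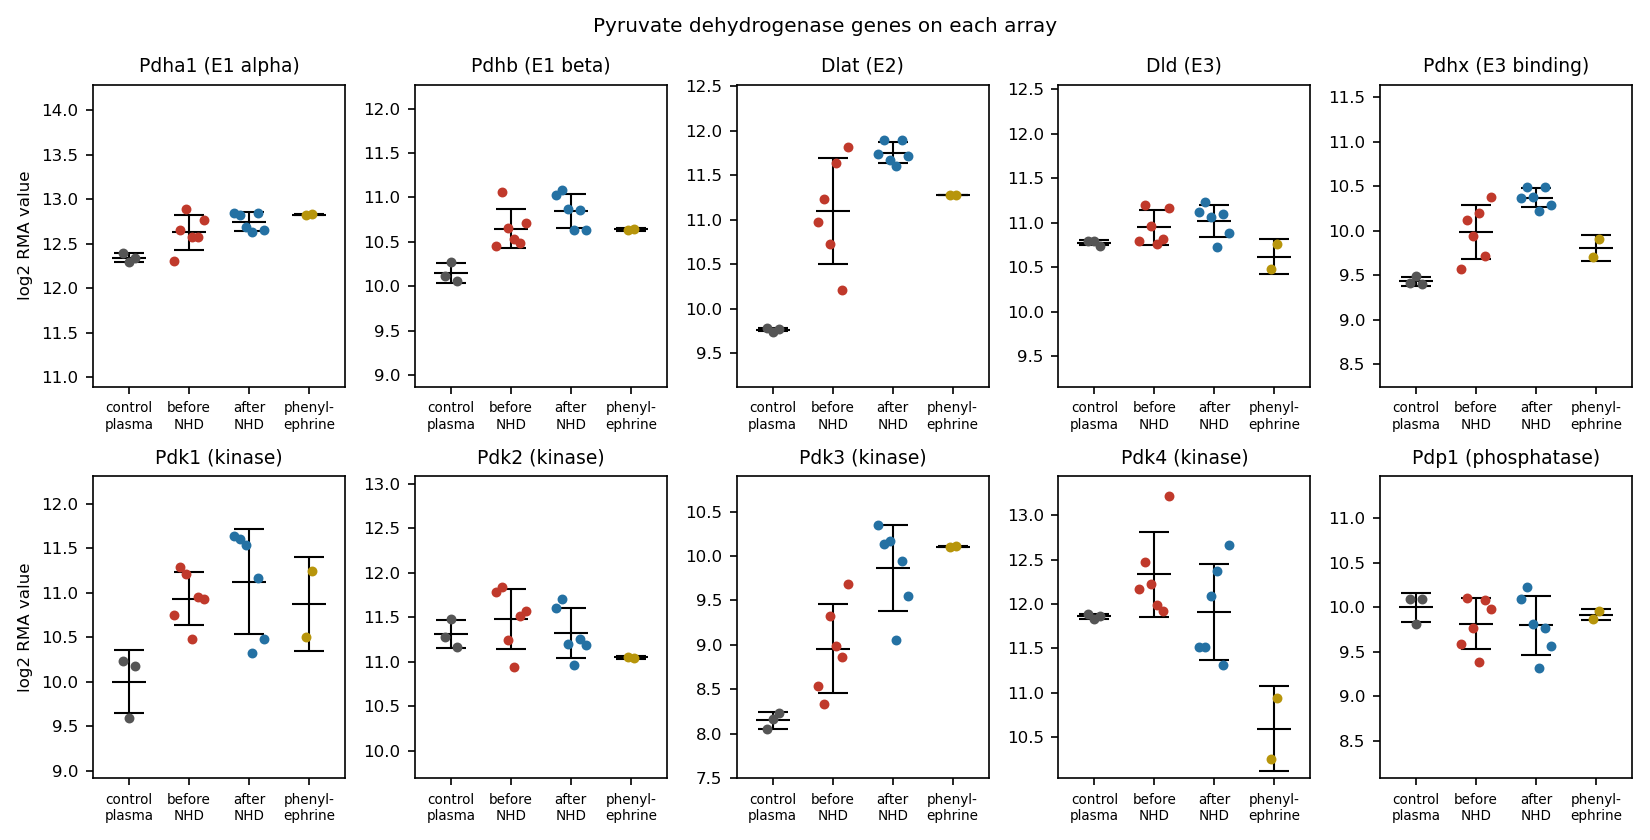
Log2 RMA values of the 10 genes (vertical axes, each spanning the same number of log2 units) on each array, by group, with the group mean and SD in black; points within a group are in order of replicate number. Dlat runs from 10.21 to 11.82 across the before NHD arrays, against 9.74 to 9.78 with control plasma, and Pdk4 is lowest on both phenylephrine arrays.

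Within the catalytic core, the E2 subunit Dlat moved most. With control plasma its 3 arrays read 9.78, 9.74 and 9.77. Before NHD the 6 arrays ran from 10.21 to 11.82 with a median of 11.10, after NHD from 11.60 to 11.90 with a median of 11.73, and both phenylephrine arrays read 11.28. Every array of the other groups was above the control plasma arrays, and the before and after NHD arrays overlapped.

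Dlat rose by 1.34 ± 0.25 (standard error, limma, adjusted p = 0.0176) before NHD, by 1.99 ± 0.25 (adjusted p = 0.000416) after NHD and by 1.52 ± 0.32 (adjusted p = 0.00421) with phenylephrine against control plasma, or 2.52-fold, 3.97-fold and 2.87-fold. These comparisons share the 3 control arrays. In bulk cultures, fewer cells of a type and less RNA per cell cannot be told apart. After NHD against before NHD the difference was 0.65 ± 0.20 (95% interval 0.23 to 1.08), with an adjusted p of 0.106. The SD of Dlat was 0.60 before NHD, 0.12 after NHD and 0.019 with control plasma. A second, dimmer probe set of Dlat differed from the first by 0.42 on average with an SD over the arrays of only 0.015, so it gives no independent reading.

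Pdhx, the protein that anchors E3 to the E2 core, had control plasma values of 9.41, 9.49 and 9.40. It ran from 9.57 to 10.38 (median 10.03) before NHD and from 10.22 to 10.49 (median 10.38) after NHD, and read 9.70 and 9.91 with phenylephrine. All control plasma arrays were below all others, and the phenylephrine arrays were below every after NHD array. Pdhx rose by 0.55 ± 0.14 (1.47-fold, limma adjusted p = 0.0402) before NHD and by 0.94 ± 0.14 (1.92-fold, adjusted p = 0.000522) after NHD against control plasma. With phenylephrine it was not called (0.37 ± 0.19, adjusted p = 0.175), nor was phenylephrine against after NHD (-0.57 ± 0.17, adjusted p = 0.137). After NHD against before NHD the difference was 0.39 ± 0.12 (interval 0.14 to 0.64, adjusted p = 0.103).

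The E1 subunits differed by less. Pdhb, E1 beta, read 10.12, 10.27 and 10.06 with control plasma, 10.45 to 11.06 (median 10.59) before NHD, 10.63 to 11.08 (median 10.87) after NHD and 10.63 and 10.65 with phenylephrine. The control plasma arrays were below all others and the other groups overlapped. Pdhb rose by 0.50 ± 0.13 (1.41-fold, limma adjusted p = 0.0443) before NHD and by 0.70 ± 0.13 (1.62-fold, adjusted p = 0.00158) after NHD. With phenylephrine the difference of 0.49 ± 0.17 missed the threshold (adjusted p = 0.059), and it passed it in a fit of 1 probe set per gene (adjusted p = 0.0477) and without before NHD replicate 2 (adjusted p = 0.0299).

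Pdha1, E1 alpha, which carries the serines that the kinases phosphorylate, read 12.39, 12.29 and 12.34 with control plasma, 12.31 to 12.89 (median 12.62) before NHD, 12.63 to 12.85 (median 12.75) after NHD and 12.82 and 12.83 with phenylephrine. Only the before NHD arrays overlapped the control plasma arrays. Pdha1 rose by 0.41 ± 0.11 (1.33-fold, limma adjusted p = 0.011) after NHD and by 0.48 ± 0.14 (1.40-fold, adjusted p = 0.0234) with phenylephrine, and before NHD the difference of 0.29 ± 0.11 was not called (adjusted p = 0.115). The phenylephrine call was lost without control replicate 2 (adjusted p = 0.0561) or 3 (0.0574) or phenylephrine replicate 1 (0.122) or 2 (0.126), and the after NHD call was lost in a fit with a term for array SD (0.123). The second probe set of Pdha1 tracked the first to within 0.032 on every array. RefSeq also lists a Pdha1-like gene, Pdha1l1, and whether the probes tell them apart was not tested.

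Dld, the E3 enzyme that the complex shares with other 2-oxoacid dehydrogenases, was called in none of the 6 comparisons of the main fit. It read 10.79, 10.79 and 10.74 with control plasma, 10.76 to 11.20 before NHD, 10.73 to 11.23 after NHD and 10.48 and 10.76 with phenylephrine, and these ranges overlapped. The intervals of its differences from control plasma were -0.092 to 0.44 before NHD, -0.019 to 0.52 after NHD and -0.50 to 0.19 with phenylephrine. After NHD against control plasma, Dld was called higher with replicate number as a block (0.33, limma adjusted p = 0.0486) and with array weights (0.30, 0.0144). Array weights also called it lower with phenylephrine against before NHD (-0.40, 0.0381) and after NHD (-0.44, 0.0142). The labels do not say that same-numbered arrays of different groups, which the block joins, share a culture.

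**Figure D2:**
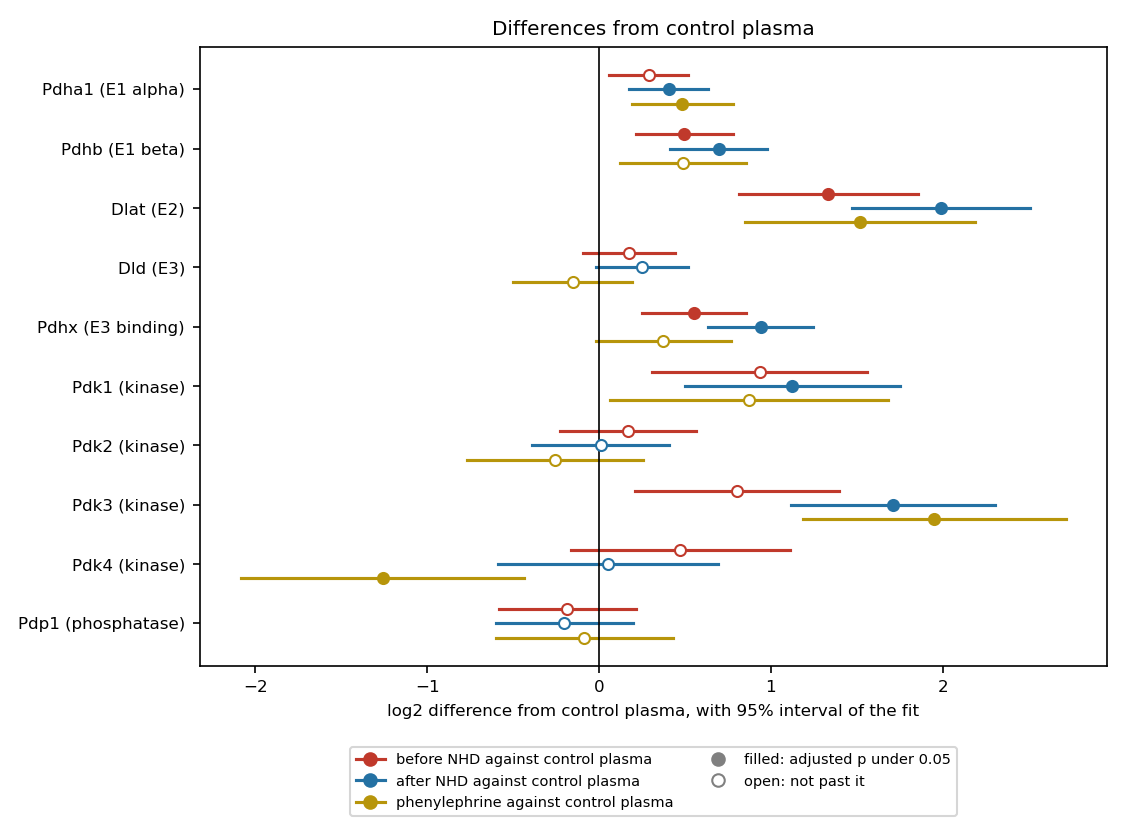
Log2 difference from control plasma (horizontal axis) of each gene before NHD, after NHD and with phenylephrine, with the 95% interval of the limma fit of 17 arrays; filled points passed an adjusted p of 0.05. Dlat and Pdk3 lie farthest to the right after NHD (1.99 and 1.71) and with phenylephrine (1.52 and 1.95), and Pdk4 lies to the left with phenylephrine (-1.26). The 3 comparisons share the control arrays.

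Among the kinases, Pdk3 and Pdk4 differed in opposite directions with phenylephrine. Pdk3, a kinase of high intrinsic activity, read 8.05, 8.17 and 8.24 with control plasma and 10.10 and 10.11 with phenylephrine. Before NHD it ran from 8.34 to 9.69 (median 8.92) and after NHD from 9.05 to 10.35 (median 10.04). All arrays of the other groups were above control plasma, the phenylephrine arrays were above all before NHD arrays, and before and after NHD overlapped.

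Pdk3 rose by 1.71 ± 0.28 after NHD (3.27-fold, limma adjusted p = 0.000684) and by 1.95 ± 0.36 with phenylephrine (3.87-fold, adjusted p = 0.00204) against control plasma. Before NHD against control plasma the difference was 0.80 ± 0.28 (interval 0.21 to 1.40, adjusted p = 0.0953). After NHD against before NHD it was 0.91 ± 0.23 (interval 0.42 to 1.39, adjusted p = 0.0754). That last difference passed the threshold without before replicate 4 (adjusted p = 0.0311), before replicate 6 (0.0109), after replicate 4 (0.0251) or both arrays numbered 4 (0.0112), and when only the brighter part of the probe sets was tested (0.0492). Phenylephrine against before NHD was 1.15 ± 0.32 (adjusted p = 0.0549) and phenylephrine against after NHD 0.24 ± 0.32 (adjusted p = 0.846). The former passed without before replicate 3 (adjusted p = 0.0466), before replicate 6 (0.0145) or after replicate 4 (0.0237) or both arrays numbered 4 (0.0242), and in fits of 1 probe set per gene (0.042) and after a second quantile normalization (0.048).

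Pdk4, a kinase known to be induced by fasting and fatty acids, read 11.89, 11.83 and 11.86 with control plasma and 10.26 and 10.94 with phenylephrine. It ran from 11.92 to 13.22 (median 12.20) before NHD and from 11.31 to 12.66 (median 11.80) after NHD. Both phenylephrine arrays were below every other array, and every before NHD array was above the control plasma arrays. Pdk4 fell by 1.26 ± 0.39 with phenylephrine against control plasma (2.39-fold lower, limma adjusted p = 0.0332), and the difference of phenylephrine from before NHD was -1.73 ± 0.35 (3.32-fold lower, adjusted p = 0.00997). Against after NHD the difference was -1.31 ± 0.35 (adjusted p = 0.0938), and 0.0413 without before NHD replicate 6.

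The call against control plasma was lost without control replicate 1 (adjusted p = 0.0797), 2 (0.0602) or 3 (0.0755) and without phenylephrine replicate 1 (0.276) or 2 (0.0642), and that against before NHD without phenylephrine replicate 1 (0.263) or 2 (0.0612). Plasma did not move Pdk4 past the threshold: before NHD the difference from control plasma was 0.47 ± 0.30 (adjusted p = 0.338), after NHD it was 0.053 ± 0.30 (interval -0.59 to 0.69, adjusted p = 0.916), and after against before NHD it was -0.42 ± 0.25 (interval -0.94 to 0.10, adjusted p = 0.381).

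Pdk1, a kinase known as a target of hypoxia-inducible factor, read 10.23, 9.59 and 10.18 with control plasma and 10.50 and 11.25 with phenylephrine. It ran from 10.48 to 11.29 (median 10.94) before NHD and from 10.32 to 11.64 (median 11.36) after NHD. The control plasma arrays were below all others, and the remaining groups overlapped. Pdk1 rose by 1.13 ± 0.30 after NHD against control plasma (2.18-fold, limma adjusted p = 0.0102). Without control replicate 2, the lowest of all arrays, the difference was 0.92 ± 0.34 and was not called (adjusted p = 0.0555). Before NHD the difference was 0.94 ± 0.30 (adjusted p = 0.0719, 0.0491 without after NHD replicate 4 and 0.04 without both arrays numbered 4), and with phenylephrine it was 0.87 ± 0.38 (adjusted p = 0.124).

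Pdk2, a widely expressed kinase, read 11.28, 11.48 and 11.17 with control plasma, 10.94 to 11.84 (median 11.54) before NHD, 10.96 to 11.71 (median 11.23) after NHD and 11.06 and 11.04 with phenylephrine. It was called in none of the 6 comparisons of the main fit. The intervals from control plasma were -0.23 to 0.57 before NHD, -0.39 to 0.41 after NHD and -0.77 to 0.26 with phenylephrine. With replicate number as a block in the fit, Pdk2 was called lower with phenylephrine against before NHD (-0.73, limma adjusted p = 0.00671), after NHD (-0.57, 0.0348) and control plasma (-0.39, 0.0406). That block joins same-numbered arrays of all groups, and the labels do not say that these share anything.

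On the 6 after NHD arrays the kinases did not vary alike. Replicates 4 and 6 had the lowest Pdk1 (10.32 and 10.48) and Pdk3 (9.05 and 9.55) of that group and the highest Pdk4 (12.37 and 12.66). The other 4 arrays had Pdk1 at 11.17 to 11.64, Pdk3 at 9.94 to 10.35 and Pdk4 at 11.31 to 12.09. Among the before NHD arrays, by contrast, replicate 6 had both the highest Pdk3 (9.69) and the highest Pdk4 (13.22). These are values of single arrays, picked out after they were seen, and were not tested.

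**Figure D3:**
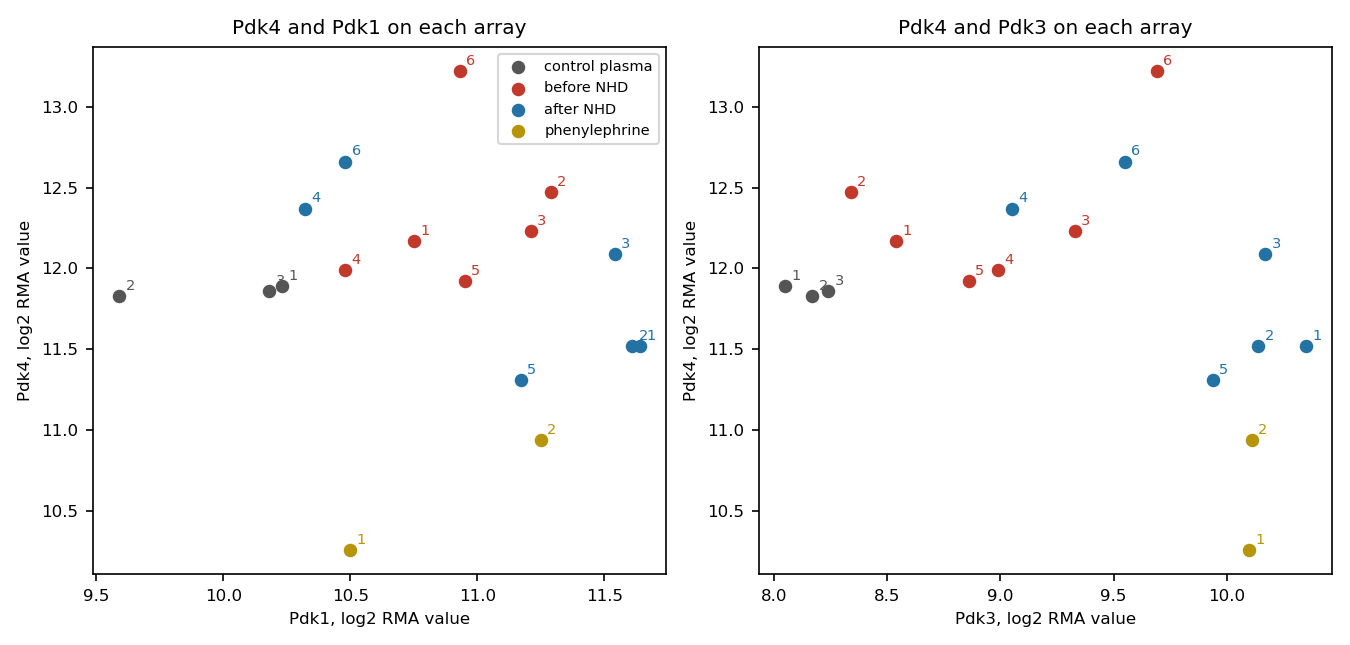
Pdk4 against Pdk1 (left) and against Pdk3 (right), in log2 RMA values, with 1 point per array, coloured by group and numbered by replicate. Both phenylephrine arrays lie at the bottom, with Pdk4 at 10.26 and 10.94, and after NHD replicates 4 and 6 lie above the other after NHD arrays.

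Pdp1, the phosphatase that reactivates the complex, read 10.09, 9.81 and 10.09 with control plasma, 9.38 to 10.10 (median 9.87) before NHD, 9.32 to 10.23 (median 9.79) after NHD and 9.87 and 9.96 with phenylephrine. All 4 ranges overlapped. It was called in no comparison, and its differences from control plasma were -0.18 ± 0.19, -0.20 ± 0.19 and -0.085 ± 0.24. None of the 3 other genes of this system was called in any comparison: Pdp2, the second phosphatase, Pdpr, the phosphatase regulatory subunit, and Pdha2, the E1 alpha form of testis. After NHD against control plasma, Pdp2 differed by 0.25 ± 0.21, Pdpr by 0.20 ± 0.12 and Pdha2 by -0.11 ± 0.087.

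Counted together, 6 of the 10 members were called higher and 0 lower after NHD against control plasma, where 16.7% of genes were called higher and 16.3% lower. The median member differed by 0.55 and the median gene by -0.066. Before NHD against control plasma, 3 members were higher and 0 lower (3.75% and 2.09% of genes), with a median of 0.49 against -0.048 over all genes. With phenylephrine against control plasma, 3 were higher and 1 lower (11.7% and 11.9% of genes), with a median of 0.43 against -0.061. The count after NHD was 5 to 7 under every alternative tried, and that with phenylephrine was 2 without control replicate 2 or 3 or phenylephrine replicate 1 or 2.

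The before NHD count of 3 was less stable. It was 0 without control replicate 1 (Dlat adjusted p = 0.14) or control replicate 3 (0.125), 0 in a fit of these groups alone, and 0 in a fit with a term for array SD. It was 1, Dlat alone, without before NHD replicate 2, 4 or 6, after NHD replicate 1, 3, 5 or 6, control replicate 2 or phenylephrine replicate 1 or 2. Leaving out an array of a group that is not compared changes only the shared estimate of the spread, and for those arrays the adjusted p of Pdhb and Pdhx moved to between 0.0527 and 0.0609. Pdhb alone lost its call without before NHD replicate 1 or 3 (0.0506 in both), and Pdhx alone without after NHD replicate 2 (0.0506) or without both arrays numbered 4 (0.0561).

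After NHD against before NHD, 0 of 10 members were called by limma, and 3 (Dlat, Pdhx and Pdk3) had an unadjusted p under 0.05, as did 5402 of the 29214 probe sets. In the main fit of this comparison 0.379% of genes were called higher and 0.103% lower. The shares of all genes called with arrays left out are not given here, so the member calls below have no background beside them. Without before NHD replicate 4, without before NHD replicate 6, or without both arrays numbered 4, Dlat, Pdhx and Pdk3 were all called (adjusted p = 0.0256, 0.0386 and 0.0311; 0.0152, 0.0165 and 0.0109; 0.0315, 0.038 and 0.0112). Without after NHD replicate 4, Pdk3 alone was called. Phenylephrine against before NHD called 0 members higher and 1 lower, Pdk4, with 2.63% and 3.14% of genes called, and the count was 2 with Pdk3 added without before replicate 3 or 6, after replicate 4 or both arrays numbered 4, and 0 without phenylephrine replicate 1 or 2. Phenylephrine against after NHD called 0 members, with 0.662% and 0.689% of genes called higher and lower, and 1 member without before replicate 6. In the main fit of that comparison 3 members had an unadjusted limma p under 0.05, as did 3448 of the 29214 probe sets.

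The position of a before NHD array on the first principal component and its level of Dlat ran in nearly the same order. Replicate 5 was lowest on both (-66.5 and 10.21) and replicate 6 highest (40.8 and 11.82). The summary of the 12 cardiomyocyte markers (their mean log2 value on an array) was 12.52 to 12.55 with control plasma, 12.58 to 13.01 before NHD, 12.94 to 13.10 after NHD and 12.87 to 12.88 with phenylephrine. Of the 12, 3 before NHD, 7 after NHD and 3 with phenylephrine were called higher than with control plasma, and 0 lower. Of all genes, 3.75%, 16.7% and 11.7% were called higher in the same order, and 2.09%, 16.3% and 11.9% lower. The mean of 11 fibroblast markers was 8.32 to 8.43 with control plasma, 7.37 to 9.78 before NHD, 7.60 to 9.68 after NHD and 9.78 to 10.01 with phenylephrine. Of the 11, 1 was called higher by limma after NHD (all genes: 16.7%), 1 with phenylephrine (11.7%) and 0 before NHD (3.75%) against control plasma. The median differences of these markers from control plasma were 0.38, 1.35 and -0.15 in the same order. After NHD against before NHD, 1 of the 11 was called higher (all genes: 0.379%), with a median difference of 0.54. The phenylephrine arrays were also above control plasma in the means of 7 endothelial markers (6.91 to 6.94 against 6.36 to 6.54), 7 leukocyte markers (6.41 to 6.53 against 6.09 to 6.15) and 8 smooth muscle and pericyte markers (10.75 to 10.78 against 10.46 to 10.54). The median markers of these lists differed by 0.21, 0.29 and -0.14. The higher mean of the last list was thus not shared by its median marker. Of these markers, 2 endothelial ones were called higher, 0 leukocyte ones were called (limma), and 2 smooth muscle and pericyte ones were called higher and 1 lower. Of all genes, 11.7% were higher and 11.9% lower in that comparison. No marker is at 0 on this scale, and the part of the markers in the results was not tested.

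**Figure D4:**
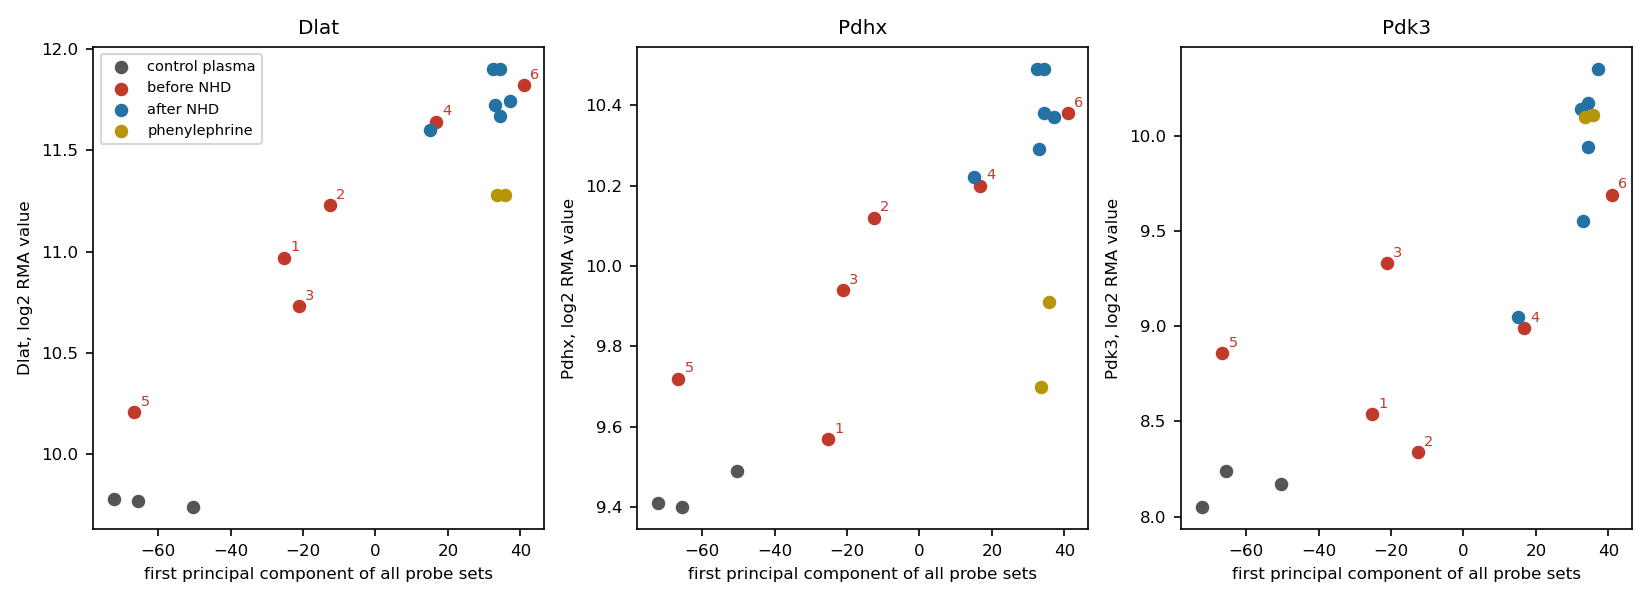
Log2 RMA values of Dlat, Pdhx and Pdk3 (vertical axes) against the position of each array on the first principal component of all probe sets (no unit), with before NHD arrays numbered by replicate. Before NHD arrays spread from -66.5 to 40.8, with Dlat from 10.21 to 11.82 in nearly the same order, and the phenylephrine arrays lie below the after NHD arrays for Dlat and Pdhx.

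The genes whose brightest probe set was most like that of Dlat over the 17 arrays were Dnajc15 (Pearson r = 0.985), Hus1 (0.982), Pigq (0.982), Cux1 (0.981) and Ptges2 (0.981). Dlat served as the reference because it had the smallest p after NHD against control plasma. Group differences and the spread along the first component enter these coefficients, and after the group means were subtracted the most alike were Gprasp3 (0.968), Mtg1 (0.968), Suclg1 (0.960), Pigq (0.959) and Ptdss2 (0.959). Suclg1 is a subunit of succinate-CoA ligase of the citric acid cycle. Among the members, Pdhx was the most like Dlat both before (0.911) and after (0.777) the group means were subtracted, whereas Pdhb went from 0.811 to 0.287 and Pdk3 from 0.770 to 0.293. These coefficients are descriptions over arrays that share groups, with no test.

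The complex depends on lipoate and thiamine, and 11 of 14 listed genes of their supply were measured. After NHD against control plasma 3 were higher and 5 lower, with a list median of -0.11 (all genes: 16.7% higher, 16.3% lower, median -0.066). Bola3, an iron-sulfur cluster factor needed for lipoate synthesis, rose by 1.93 ± 0.32 (limma adjusted p = 0.000722), Mecr, of mitochondrial fatty acid synthesis, by 1.21 ± 0.27 (adjusted p = 0.00391), and Gcsh, the lipoyl carrier H protein, by 0.85 ± 0.17 (adjusted p = 0.002). The thiamine transporter Slc19a2 fell by 1.33 ± 0.27 (adjusted p = 0.00207). With phenylephrine 1 was higher, Bola3, and 5 were lower, with a median of -0.53 (all genes: 11.7% higher, 11.9% lower, median -0.061). The decreases with the smallest p were in Lipt1, the lipoyltransferase (-1.33 ± 0.20, adjusted p = 0.00064), Oxsm (-0.89 ± 0.14, adjusted p = 0.000812), Slc19a2 (-1.68 ± 0.34, adjusted p = 0.00388) and the cluster carrier Nfu1 (-0.53 ± 0.13, adjusted p = 0.0117). Before NHD, 0 of 11 were called.

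Of the sister 2-oxoacid dehydrogenase complexes, which share the E3 enzyme Dld, 9 listed genes were measured and Dlst was not. After NHD 4 were higher than with control plasma and 0 lower, with a median of 0.37 (all genes: 16.7%, 16.3% and -0.066): Bckdk, the kinase of the branched-chain complex (1.29 ± 0.22, limma adjusted p = 0.000815), Bckdhb, its E1 beta subunit (1.77 ± 0.31, adjusted p = 0.000971), Dbt, its E2 core (0.43 ± 0.12, adjusted p = 0.0151), and Ogdh, E1 of the 2-oxoglutarate complex (0.37 ± 0.12, adjusted p = 0.0329). With phenylephrine 2 were higher and 0 lower, with a median of -0.034 (all genes: 11.7%, 11.9% and -0.061): Bckdk (1.43 ± 0.28) and Bckdhb (1.35 ± 0.40). Before NHD 1 was higher and 0 lower (all genes: 3.75% and 2.09%), Bckdk (0.95 ± 0.22, adjusted p = 0.0295).

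A list of 24 genes covered pyruvate supply and other fates, and included genes that do not act on pyruvate itself, such as Cs, Slc25a20 and Aldh2. Of these 24, 8 were higher and 0 lower after NHD, 7 higher and 1 lower with phenylephrine, and 2 higher and 0 lower before NHD against control plasma. Of all genes, 16.7% were higher and 16.3% lower after NHD, 11.7% and 11.9% with phenylephrine, and 3.75% and 2.09% before NHD. The list medians were 0.30, 0.25 and 0.16, against -0.066, -0.061 and -0.048 over all genes. The monocarboxylate exporter Slc16a3 rose in each of these comparisons, by 2.51 ± 0.29 (5.71-fold, limma adjusted p = 0.000377) after NHD, 2.38 ± 0.37 (adjusted p = 0.000769) with phenylephrine and 1.46 ± 0.29 (adjusted p = 0.0201) before NHD. Citrate synthase (Cs), which takes up the acetyl-CoA that the complex makes, rose by 0.73 ± 0.12, 0.51 ± 0.16 and 0.49 ± 0.12 in the same order. Pyruvate carboxylase (Pc), the competing route into the citric acid cycle, rose by 1.46 ± 0.29 after NHD and 1.59 ± 0.38 with phenylephrine. Mpc1, a subunit of the mitochondrial pyruvate carrier, rose by 0.67 ± 0.15 after NHD, and the carnitine carrier Slc25a20 was the gene lower with phenylephrine (-1.04 ± 0.33, adjusted p = 0.0384).

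The list drawn up for regulators of the kinases also held lipid metabolism genes (Lipe, Cpt1a, Cpt1b and Angptl4). Among its 20 measured genes, 7 were higher and 1 lower after NHD against control plasma, with a median of 0.37 (all genes: 16.7%, 16.3% and -0.066). The 4 with the smallest p were Ppargc1b, a coactivator of mitochondrial genes (1.08 ± 0.16, limma adjusted p = 0.000516), Hif1a (0.45 ± 0.11, adjusted p = 0.00697), Ppara, the fatty acid receptor (0.98 ± 0.26, adjusted p = 0.0104), and Sirt5, a mitochondrial deacylase (0.51 ± 0.14, adjusted p = 0.0131). The lower gene, named after its value was seen, was the forkhead factor Foxo1 (-0.51 ± 0.15, adjusted p = 0.0154). With phenylephrine 2 were higher, Rxra (0.51 ± 0.14) and Esrrg (0.85 ± 0.27), and 1 was lower, Foxo1 (-0.99 ± 0.19, adjusted p = 0.00247), with a median of 0.030 (all genes: 11.7%, 11.9% and -0.061). Before NHD only Ppargc1b was called, higher (0.91 ± 0.16, adjusted p = 0.0171), where 3.75% of genes were higher. After NHD against before NHD, 0 genes of these 5 lists were called by limma.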

How the data were processed

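The authors deposited normalized expression on a log2 scale, computed with RMA (per the submitters' processing notes). Its version is not given in the sources used here. RMA makes the arrays' distributions more alike, so a shift shared by most genes can be removed. The SDs of the arrays still ran from 2.24 to 2.37 before NHD and from 2.32 to 2.34 after NHD. They ran from 2.24 to 2.32 with control plasma and from 2.29 to 2.32 with phenylephrine. Gene symbols came from the platform annotation and were updated through RefSeq (GRCr8): 15310 probe sets had 1 symbol, 323 several and 13581 none. Groups followed the sample titles. In the titles of a few before NHD samples that carry more than 1 replicate number, the last was used.

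All 29214 probe sets were tested with limma 3.58.1 (R 4.3.3; lmFit, eBayes) in 1 fit of 17 arrays and 4 groups, two-sided, with Benjamini-Hochberg adjustment and a threshold of 0.05 (13 residual degrees of freedom). The pooled spread was unequal between groups, and the number of arrays limits precision. The fit was also run on simulated arrays with known changes and an equal spread in all groups. That run does not show how the fit performs at the unequal spread of these data. The members and lists were chosen with earlier results of these data known. From each list, up to 4 genes past the threshold were named by smallest p. Dlat's closest genes were the 5 with the highest r. Alternatives concerned the probe sets tested, normalization, variance prior, array weights, a replicate block, minimum fold, array SD and left-out arrays.

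Motifs were counted in RefSeq promoter windows with Python 3.11.15.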

Additional observations from a re-analysis of the deposited data

How the results depend on the processing

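Over 29 settings and 60 member differences, 1607 recomputed values kept direction and side of the threshold, 55 lost a call, 53 gained one and 25 changed sign. None of the 14 called member differences changed sign. The cause of the moves was not tested unless the setting itself shows it. Shares of all genes called are given for the main fit only.

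After NHD against before NHD, the count of members called was 0, and became 1 with the brighter part of the probe sets, 3 with array weights and 3 without both arrays numbered 4 (0 to 3 with single arrays left out). Before NHD against control plasma, 3 became 0 with the compared groups alone, 5 with array weights, 1 with a minimum of 1.5-fold and 0 with array SD as a term (0 to 4 with single arrays left out). After NHD against control plasma, 6 was 5 to 6 with arrays left out. Phenylephrine against control plasma, 4 became 7 with the replicate block (2 to 5 with arrays left out). Phenylephrine against before NHD, 1 became 2 with the brighter part, with 1 probe set per gene, with a second quantile normalization, with the replicate block, with array SD and without both arrays numbered 4, 3 with array weights and 0 with the compared groups alone (0 to 2 with arrays left out). Phenylephrine against after NHD, 0 became 2 with the compared groups alone, 4 with array weights and 2 with the replicate block (0 to 1 with arrays left out).

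Same-numbered before and after arrays correlated at -0.025 to 0.60 in their deviations from the group means, and 3 of 6 before arrays matched their own number best. Same-numbered arrays of the other pairs of groups correlated at -0.033 to 0.14. The main fit did not take the numbers as pairs, because the labels do not say that a number marks a shared patient or culture. Whether they mark pairs was not tested. The replicate block joined same-numbered arrays of all groups, not only those before and after NHD. With the replicate block, Pdk2 was called lower with phenylephrine against before NHD (-0.73, limma adjusted p = 0.00671), after NHD (-0.57, 0.0348) and control plasma (-0.39, 0.0406), and Dld higher after NHD against control plasma (0.33, 0.0486). Array weights also called Dld, by 0.30 (0.0144) in that comparison, and with phenylephrine by -0.40 (0.0381) against before and -0.44 (0.0142) against after NHD.

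Changes of sign were confined to differences with an unadjusted p of 0.47 or more. Pdk2 after NHD against control plasma was -0.019 after a second quantile normalization (-0.069 to 0.096 with arrays left out). Pdk4 in that comparison was -0.065 with array weights, -0.069 with the replicate block, -0.29 with array SD and -0.039 without both arrays numbered 4 (-0.096 to 0.17). Pdhb with phenylephrine against before NHD was 0.035 after a second quantile normalization and 0.00047 with array SD (-0.048 to 0.074). Pdp1 with the replicate block was -0.057 for phenylephrine against before NHD and -0.040 against after NHD, and -0.11 to 0.078 with arrays left out after against before NHD. Pdk1 with arrays left out was -0.44 to 0.32 for phenylephrine against before NHD and -0.63 to 0.13 against after NHD.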

Other observations

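Phenylephrine was also compared with plasma before NHD for the listed genes outside the complex. Among the 20 measured genes of the list for kinase regulators, 0 were called higher and 3 lower (all genes: 2.63% and 3.14%): Foxo1 (-0.79 ± 0.17, limma adjusted p = 0.014), Ppargc1a, a coactivator of oxidative genes (-0.97 ± 0.25, adjusted p = 0.036), and its partner Esrra (-0.40 ± 0.10, adjusted p = 0.0365). Of the 24 genes listed for pyruvate supply and other fates, Gpt2, an alanine aminotransferase, rose by 0.68 ± 0.17 (adjusted p = 0.0323) and Aldh2 by 0.93 ± 0.25 (adjusted p = 0.0474), and Slc25a20 fell by 1.12 ± 0.30 (adjusted p = 0.0411). Of the 11 cofactor genes, 3 were lower: Lipt1 (-1.01 ± 0.18), Oxsm (-0.66 ± 0.12) and Slc19a2 (-1.35 ± 0.31). Against plasma after NHD, limma called 0 of these listed genes.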
